A study of Homo sapiens with 6 samples.

Results

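The angiomotins and the core genes of the Hippo-YAP pathway were described in cultured human podocytes by the levels of 10 genes. These were AMOT, AMOTL1, AMOTL2, YAP1, WWTR1, TEAD1, LATS1, LATS2, CYR61 and CTGF, taken by name from a deposited table of 20745 genes, and all 10 were listed there. CYR61 and CTGF are the older names of CCN1 and CCN2. RNA had been sequenced from AB 8/13 cells, a single conditionally immortalized human podocyte line that divides at a permissive temperature and differentiates at a restrictive one. There were 3 vehicle cultures and 3 cultures treated with 1 µM levamisole, an anthelminthic drug used as a steroid-sparing agent in nephrotic syndrome, all for 24 h and from different passages of the line. GEO's labels call the vehicle cultures serum free and say nothing of serum for the levamisole cultures. The treatment protocol given there places both groups in medium without serum. The methods of the study instead describe complete medium, which holds serum, for the vehicle cultures. The deposited table holds the authors' base mean of each gene, pooled over the libraries of their fit. It has no value per culture. Its other 5 numeric columns hold the authors' own contrast of levamisole with vehicle and were not used here, so no difference between the groups is given below, and no value carries an error or a number of replicates. The depth per library is unknown.

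The Hippo pathway restrains growth through a chain of kinases. When cells are crowded or their actin fibres slacken, the kinases LATS1 and LATS2 phosphorylate the coactivators YAP1 and WWTR1 (also known as TAZ) and keep them out of the nucleus. When the pathway is off, YAP1 and WWTR1 enter the nucleus and bind TEAD factors on DNA, which switches on genes such as CYR61 and CTGF. The angiomotins are junction and actin-binding scaffolds that bind YAP1 and can hold it in the cytoplasm. YAP activity is of interest in podocytes because it follows the tension of the actin cytoskeleton.

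TEAD factors bind the letters CATTCC, which read GGAATG on the other strand. These letters were searched on both strands of RefSeq promoter windows on GRCh38.p14, each running from 250 bases before a transcription start to 50 bases after it. Of 35116 such windows 14.0% held the motif. Windows were found for 8 of the 10 genes (11 windows, since some genes have more than 1 start). CYR61 and TEAD1 had no window and were searched for neither motif. The TEAD motif lay in 4 of the 11 windows, 1 each of AMOTL2, LATS2, YAP1 and CTGF. CTGF held it 3 times, beginning 169, 104 and 95 bases before the start, and 45 of all windows (0.128%) held it at least that often. AMOTL2 held it once, beginning 69 bases before the start of 1 of its 2 windows. YAP1 held it once, beginning 162 bases before the start, and LATS2 once, beginning at base 10 after it. The AP-1 letters TGANTCA, which occurred in 7.71% of all windows and can overlap the TEAD motif by 2 letters, were found only in a window of LATS1, where they began 245 bases before the start. A match of letters does not show that a factor was bound. The windows of CTGF and AMOTL2 are shown because these genes had the highest levels of the 10, and the capitals mark the TEAD motif. The CTGF window is chr6:131951323-131951622 and the AMOTL2 window is chr3:134374398-134374697, both on the minus strand and written 5′ to 3′ along the gene.
CTGF: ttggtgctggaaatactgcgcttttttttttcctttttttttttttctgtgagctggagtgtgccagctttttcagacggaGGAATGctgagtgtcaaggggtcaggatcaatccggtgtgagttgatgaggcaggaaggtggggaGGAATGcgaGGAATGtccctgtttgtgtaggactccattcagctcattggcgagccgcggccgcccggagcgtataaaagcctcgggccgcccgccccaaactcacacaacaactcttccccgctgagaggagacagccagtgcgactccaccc
AMOTL2: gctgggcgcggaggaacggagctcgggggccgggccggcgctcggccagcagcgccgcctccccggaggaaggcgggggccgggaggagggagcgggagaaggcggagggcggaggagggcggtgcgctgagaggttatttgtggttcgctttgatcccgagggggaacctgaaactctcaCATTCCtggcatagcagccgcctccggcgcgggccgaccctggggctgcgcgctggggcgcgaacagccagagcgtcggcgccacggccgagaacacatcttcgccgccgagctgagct

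All 10 genes were detected, and by base mean over all genes they lay above the median of the table. With any of 3 other ways of ranking, per kb of transcript, among genes at or above 5 normalized counts or among protein-coding genes, 9 did, the exception being AMOT. The base mean is the mean of read counts after division by a size factor for each library, and its median over all genes was 21.8 normalized counts. The members ran from 62.8 normalized counts for AMOT to 4310 for AMOTL2, a 68.6-fold range. Of the 10 genes, 9 lay in the upper quartile of the table, above 131 normalized counts, and 7 in its top 10%, above 401 normalized counts. Per kb of transcript, 8 lay in the upper quartile and 3 in the top 10%. The libraries were made with an adapted CEL-seq protocol, which reads mostly the 3′ end of a transcript, so that a count may depend little on transcript length. Across the 20599 genes with a length, of all gene types, base mean and length had a Spearman correlation of 0.41. This is a description over genes that share the same libraries, and it was not computed within protein-coding genes. Whether a count depended on transcript length was not tested. Levels of different genes were therefore compared as the base mean and also as the base mean per kb of the canonical GENCODE 44 transcript, and each order is given with its scale. Of the 45 pairs of members, 41 had the same order on both scales.

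**Figure D1:**
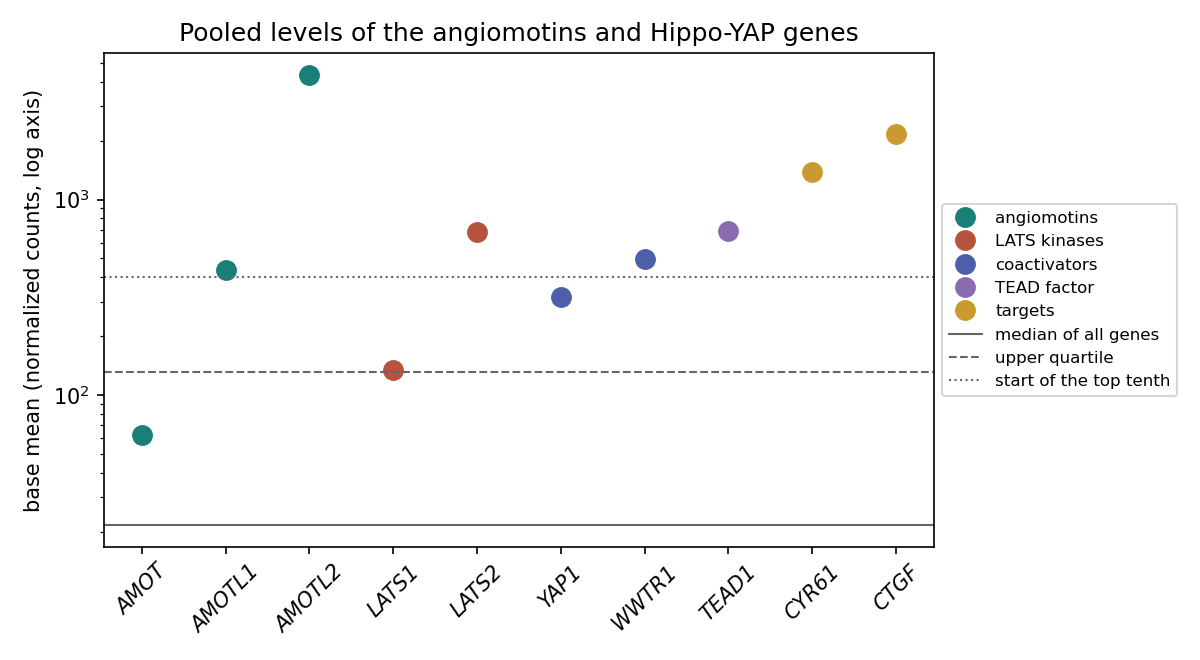
The y axis gives the authors' pooled base mean in normalized counts on a log axis, and each point is 1 of the 10 genes, coloured by its role; horizontal lines mark the median, the upper quartile and the start of the top 10% of the 20745 genes. AMOTL2 and CTGF are the highest at 4310 and 2161 normalized counts, and AMOT alone lies under the upper quartile.

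The 3 angiomotins differed most from each other. AMOTL2 (ENSG00000114019, chromosome 3 of GRCh38, 134355347 to 134375479, minus strand), which encodes angiomotin-like 2 and is itself known as a YAP target, had a base mean of 4310 normalized counts. This was rank 102 of 20745 genes, above 99.5% of them. AMOTL1 (ENSG00000166025, chromosome 11, 94706431 to 94876748, plus strand), a junction scaffold of the same family, had a base mean of 434 normalized counts, at rank 1917. AMOT (ENSG00000126016, chromosome X, 112774503 to 112840831, minus strand), the founding angiomotin, had a base mean of 62.8 normalized counts and stood at rank 7579, above 63.5% of the genes. AMOT therefore had the lowest level of the 10 genes, on the base mean and per kb alike. AMOTL2 was 9.94 times AMOTL1 and 68.6 times AMOT in base mean. Per kb of transcript the same ratios were 18.3 and 107, since the transcript of AMOTL2 (4.87 kb) is shorter than those of AMOT (7.61 kb) and AMOTL1 (8.98 kb). Of the summed base mean of the family, AMOTL2 took 89.7%, AMOTL1 9.02% and AMOT 1.31%. Per kb the shares were 94.0%, 5.13% and 0.876%.

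Of the kinases, LATS2 had the higher level. LATS2 (ENSG00000150457, chromosome 13, 20973036 to 21061586, minus strand), also known as a YAP target, had a base mean of 680 normalized counts at rank 1202. LATS1 (ENSG00000131023, chromosome 6, 149658153 to 149718105, minus strand), its paralogue with the same kinase activity toward YAP1, had a base mean of 134 normalized counts at rank 5092, just inside the upper quartile. The ratio of LATS2 to LATS1 was 5.06 in base mean and 6.72 per kb. LATS2 made up 83.5% of the summed base mean of the pair and 87.0% per kb.

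Both coactivators were detected. WWTR1 (ENSG00000018408, chromosome 3, 149517235 to 149736714, minus strand) had a base mean of 499 normalized counts at rank 1667, above 92.0% of the genes. YAP1 (ENSG00000137693, chromosome 11, 102110447 to 102233424, plus strand) had a base mean of 318 normalized counts at rank 2595, above 87.5% of the genes. WWTR1 was 1.57 times YAP1 in base mean and 1.68 times per kb. Without values per culture it could not be said whether a ratio of this size exceeds the spread between replicates. TEAD1 (ENSG00000187079, chromosome 11, 12674421 to 12944737, plus strand), the DNA-binding partner of both coactivators, had a base mean of 687 normalized counts at rank 1178. TEAD1 and LATS2 were the closest neighbours in the order, with a ratio of 1.01 in base mean, and per kb TEAD1 was the lower, at 72.9 normalized counts per kb against 123 for LATS2. The transcript of TEAD1, at 9.42 kb, is the longest of the 10.

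The target genes stood near the top of the table. CTGF (ENSG00000118523, chromosome 6, 131948176 to 131951372, minus strand), whose secreted matrix-associated protein is a common readout of YAP and TEAD activity, had a base mean of 2161 normalized counts at rank 273, above 98.7% of the genes. CYR61 (ENSG00000142871, chromosome 1, 85580761 to 85584589, plus strand), which encodes another secreted protein of the same CCN family, had a base mean of 1376 normalized counts at rank 504, above 97.6% of the genes. CTGF was 1.57 times CYR61 in base mean and 1.53 times per kb. Both are compact genes of 5 exons, with spans of 3.20 kb for CTGF and 3.83 kb for CYR61, while the other 8 members span 20.1 to 270 kb.

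The order of the 10 genes by base mean was AMOTL2, CTGF, CYR61, TEAD1, LATS2, WWTR1, AMOTL1, YAP1, LATS1 and AMOT. Per kb it was CTGF, AMOTL2, CYR61, LATS2, WWTR1, TEAD1, YAP1, AMOTL1, LATS1 and AMOT. The 4 pairs whose order turned were AMOTL2 with CTGF, TEAD1 with LATS2, TEAD1 with WWTR1 and AMOTL1 with YAP1. AMOTL2 was 1.99 times CTGF in base mean and 0.958 times per kb. On both scales AMOTL2, CTGF and CYR61 were the upper 3 and LATS1 and AMOT the lower 2. Per kb, AMOT at 8.25 normalized counts per kb fell just under the median of the table, which was 8.45. All 10 genes stood lower in the table per kb than by base mean. For 8 of the 10 genes the transcript was longer than the median of 2.496 kb, and for CTGF and CYR61 it was shorter.

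**Figure D2:**
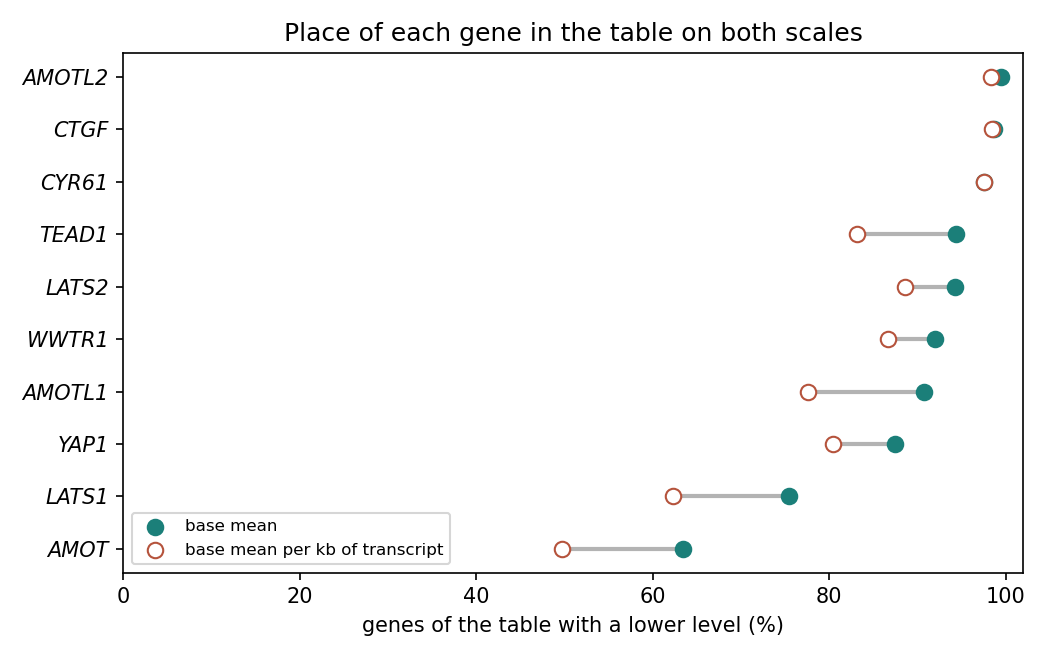
The x axis gives the percentage of genes in the table with a lower level, and each line joins the place of 1 gene by base mean (filled) and by base mean per kb of transcript (open). CYR61 (97.6% and 97.5%, so that the open point covers the filled one), CTGF (98.7% and 98.5%) and AMOTL2 (99.5% and 98.4%) move by little, while AMOT moves from 63.5% to 49.7% and AMOTL1 from 90.8% to 77.6%.

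Overlap with other genes was checked near the end of the transcript that the protocol reads. Within the last 500 exonic bases of the canonical transcripts, 0 of the 10 genes overlapped an exon of a neighbouring gene in GENCODE 44, on either strand. The 10 genes together made up 0.168% of the sum of all base means, of which 34.8% came from 22 mitochondrially encoded genes.

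The other genes on the pathway lists all had a value, and 3 of the 4 lists had lower medians than the 10 genes on both scales. Of 13 upstream Hippo kinases and adaptors, 12 lay above the median of the table by base mean and 11 per kb, with a median base mean of 234 normalized counts. The highest were FRMD6, a cortical adaptor of the FERM family, at 771 normalized counts, and TAOK1, a kinase upstream of the Hippo kinases, at 659. The lowest were the atypical cadherins FAT4 at 26.0 and DCHS1 at 1.97 normalized counts, and DCHS1 was the only gene of this list under 5. Per kb the list had a median of 38.0 normalized counts per kb, against 86.0 for the 10 genes.

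Of the 5 other TEADs and TEAD cofactors, 4 lay above the median of the table by base mean and 3 per kb. TEAD3 had a base mean of 510 normalized counts and TEAD2 of 100.7, while VGLL3, a TEAD-binding cofactor of the vestigial-like family, had 87.6. TEAD4 was the lowest of the list at 6.44 normalized counts. By base mean TEAD1 was thus the highest of the 4 TEAD genes, but per kb TEAD3 was higher, at 171 normalized counts per kb against 72.9 for TEAD1.

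Of 9 YAP partners and junction proteins, 8 lay above the median by base mean and 7 per kb, with a median base mean of 171 normalized counts. PTPN14, a phosphatase that binds YAP1, had 1098 normalized counts, and NEDD4L, a ubiquitin ligase, 595. PATJ, a tight junction scaffold that binds angiomotins, had 64.5 normalized counts, and LIMD1, a LIM protein that binds LATS kinases, was the lowest at 11.4.

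The list of YAP-TEAD targets, which like the others was chosen with earlier results of these data known, stood highest. Of its 19 genes, 18 lay above the median of the table on both scales and 17 in the upper quartile by base mean. The median base mean was 1127 normalized counts, against 21.8 over all genes. The list includes 4 of the 10 genes, AMOTL2, LATS2, CYR61 and CTGF, so its level is not separate from theirs. THBS1, which encodes the matrix protein thrombospondin-1, was the highest at 11062 normalized counts, followed by AMOTL2. The lowest were F3, which encodes tissue factor, at 57.0 and ARHGEF17, which encodes a guanine nucleotide exchange factor, at 19.0 normalized counts. Such genes respond to many inputs besides YAP, and a level in a pooled table does not show what drives it.

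**Figure D3:**
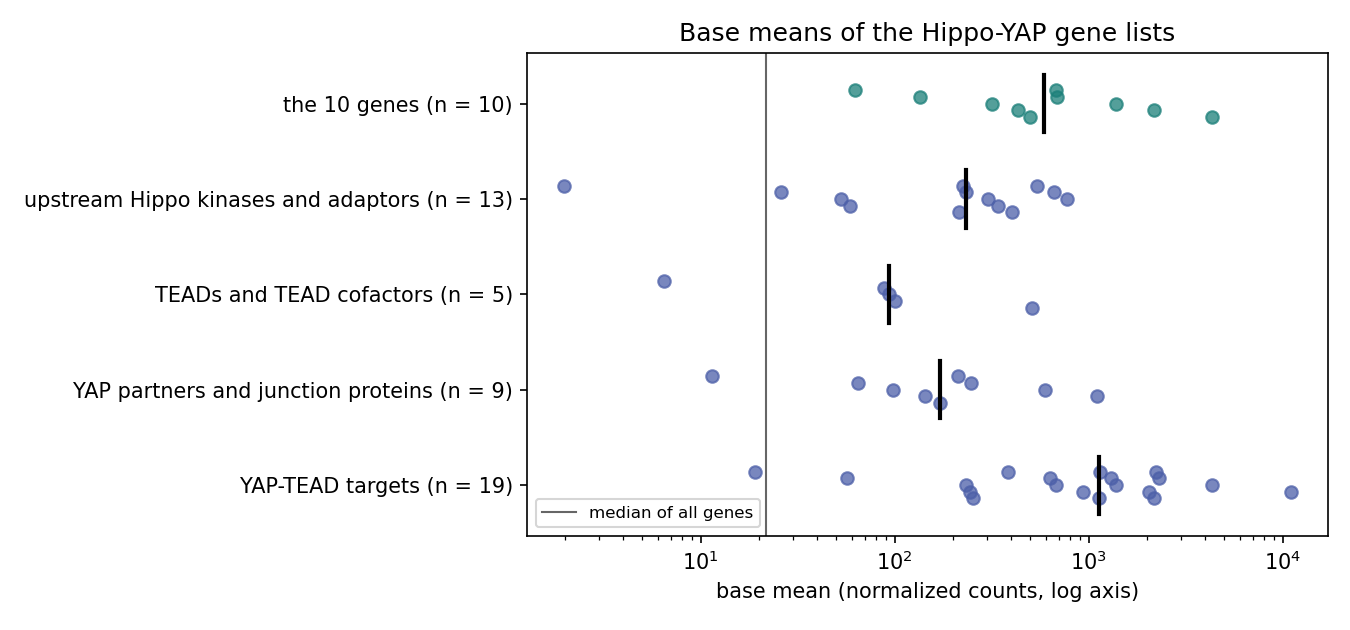
The x axis gives the authors' pooled base mean in normalized counts on a log axis for the 10 genes and for 4 lists of other pathway genes, each point being 1 gene, the short black bar the median of a list and the thin line the median of all genes. The YAP-TEAD targets have the highest median at 1127 normalized counts and include 4 of the 10 genes.

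The label of the cells as podocytes was checked against marker genes. Of 11 podocyte markers, 9 had a value, and 5 of these lay above the median of the table by base mean and 2 per kb. ACTN4 and CD2AP, an actin crosslinker and a slit diaphragm adaptor that are expressed in many cell types, had base means of 14320 and 929 normalized counts. WT1, PODXL and SYNPO, which mark mature podocytes more closely, had 6.21, 15.3 and 22.8 normalized counts. MAGI2 had 55.1, PLA2R1 21.8 and TCF21 7.20 normalized counts. The 5 above the median by base mean were ACTN4, CD2AP, MAGI2, SYNPO and, just above it, PLA2R1. PTPRO lay at 0.333, and NPHS1 and LMX1B had no value here. The endothelial markers with a value lay at up to 0.434 and the leukocyte markers at up to 1.06 normalized counts. Of the mesangial and smooth muscle markers ACTA2 had 1021 normalized counts, MYH11 66.9 and PDGFRB 4.14, and of the proximal tubule markers AQP1 had 243 while SLC34A1 and CUBN lay under 5. The part of these cells' differentiation state in the levels of the 10 genes was not tested.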

How the data were processed

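RNA from 3 vehicle and 3 levamisole cultures (1 µM, 24 h) was sequenced. Per the submitters' processing notes and the study's methods, the authors trimmed reads with Trim Galore 0.4.5, mapped them to GRCh38 with STAR 2.7.5a, counted them with HTSeq 0.11.0 and compared the groups with DESeq2 1.22.0 in R 3.5.3. The authors deposited 1 table of that comparison. Its base mean, the signal used here, is the mean of normalized counts over the libraries of the authors' fit, without scaling by length. Its log2 fold change, standard error, Wald statistic, p-value and adjusted p-value are the authors' own contrast of the groups and were not used. Since no value per culture was at hand, no test between the groups was run, and the depth per library is unknown.

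Ranks, percentages of genes with a lower level, ratios and list medians were obtained in Python 3.11.15 (SciPy 1.17.1, pandas 2.3.3, NumPy 2.4.6), and figures drawn with matplotlib 3.10.9. Ranks and motif searches were tested on simulated data. Lengths and positions are those of GENCODE 44 on GRCh38, in which 20599 of 20745 gene identifiers were found. Promoter windows came from RefSeq (GRCh38.p14). Protein sequences were not used here. The 10 genes and the gene lists were chosen with earlier results of these data known. Besides the 10 genes, the 2 highest and 2 lowest genes of each pathway list were named, with any under a base mean of 5. Some genes first placed on these lists were removed from them, enter no count and are not reported here. The alternatives were levels per kb, a base mean minimum of 5, protein-coding genes only and a total without mitochondrially encoded genes.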

Additional observations from a re-analysis of the deposited data

How the results depend on the processing

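No paired analysis was possible because values per culture were not at hand. For the same reason no replicate could be left out and no other normalization tried. The planned comparison of protein sequences was not run. The share of genes with a lower level fell for every member under the 3 alternatives tried for it. With the minimum of 5 this fall was fixed in advance, since all 10 genes lie above it and only lower genes were dropped. Ranked per kb of transcript, the share was AMOT 49.7%, AMOTL1 77.6%, AMOTL2 98.4%, LATS1 62.2%, LATS2 88.6%, YAP1 80.4%, WWTR1 86.7%, TEAD1 83.2%, CYR61 97.5% and CTGF 98.5%. For CYR61 this was nearly the share by base mean, 97.6%. Among the 13336 genes at or above 5 normalized counts it was AMOT 43.2%, AMOTL1 85.6%, AMOTL2 99.2%, LATS1 61.8%, LATS2 91.0%, YAP1 80.5%, WWTR1 87.5%, TEAD1 91.2%, CYR61 96.2% and CTGF 98.0%. Among the 14455 protein-coding genes it was AMOT 48.9%, AMOTL1 86.9%, AMOTL2 99.3%, LATS1 65.3%, LATS2 91.8%, YAP1 82.3%, WWTR1 88.6%, TEAD1 92.0%, CYR61 96.6% and CTGF 98.2%. AMOT was thus the only member under the median in these 3 alternatives, in each of which 9 of the 10 genes lay above it. For the lists, the counts above the median per kb are given above. Among genes at or above 5 normalized counts, 9 upstream Hippo kinases and adaptors lay above the median, against 12 over all genes. The same counts were 4 against 4 for the TEADs and TEAD cofactors and 7 against 8 for the YAP partners and junction proteins. For the YAP-TEAD targets they were 17 against 18. The protein-coding alternative was not run for the lists. Leaving the mitochondrially encoded genes out of the total raised each member's share of the sum 1.53-fold. With only the 250 bases before the start searched, 11.9% of windows held the TEAD motif, and LATS2 no longer did. Depth limits could not be set, since only pooled means were at hand.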
